A study of Mus musculus with 207 samples.

Results

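Mitochondrial ribosomal protein genes were followed through 207 single cells from mouse pancreatic islets. They were taken from the deposited expression table as the protein-coding genes whose symbol begins with Mrpl or Mrps and a digit, which gave 78 of 21249 protein-coding genes, 49 named for the large ribosomal subunit (Mrpl) and 29 for the small one (Mrps). A further 6 rows with such symbols are pseudogenes and were not counted as members. The cells came from male mice aged 3 months (labelled Young, 138 cells) or 26 months (labelled Old, 69 cells), all labelled as beta cells, the insulin makers of the islet. The labels name no strain, no treatment and no animal. Each cell was caught on a C1 microfluidic chip, its RNA was copied with SMARTer chemistry and libraries were made with Nextera XT. Cells are not replicates, so each age counts as 1 sample, differences between the ages carry no test, and an SD below is the spread between cells.

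The mitochondrial ribosome translates the few messages that mitochondrial DNA still encodes, all for proteins of oxidative phosphorylation. Its RNAs, mt-Rnr1 for the small and mt-Rnr2 for the large subunit, are made inside the organelle, while every one of its proteins is encoded in the nucleus, made in the cytosol and imported. Some of the proteins have counterparts in bacterial ribosomes and others are found only in mitochondria. Beta cells depend on the respiratory chain to couple glucose to insulin release.

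Values are TPM, a relative transcript abundance that is scaled for transcript length. They sum to the same total in every cell, so that genes can be ordered by level but the read depth behind a value is unknown. Detected means a TPM of 1 or above. A cell had 4238 detected genes at the median, with a range of 1604 to 6654. Beta cell markers summed to a median of 624551 TPM in Young cells (Old 596950 TPM), while those of acinar, endothelial, mesenchymal and erythroid cells had a median sum of 0 at both ages. Of these defining genes Pnlip and Hba-a1 were listed at 0 in all cells. Other islet markers were above 0: alpha cell markers summed to a median of 910 TPM in Young and 742 TPM in Old (highest cells 4315 and 6987 TPM), delta cell markers to 30.2 and 69.5 TPM (770 and 1586 TPM) and PP cell markers to 22.2 and 47.8 TPM (890 and 2123 TPM). Their part in the age differences was not tested. Single cells reached 15832 TPM of macrophage markers in Young and 4443 TPM in Old, and 1586 and 6584 TPM of ductal markers, whose medians were 47.2 and 93.4 TPM. Earlier work on these data split the cells by their numbers into 4 runs an age, of a low kind (54 Young and 40 Old cells, with a mean mitochondrial rRNA and tRNA of 3735 and 2639 TPM) and a high kind (84 Young and 29 Old cells, 12832 and 22374 TPM). What the runs are is not in the labels. Every run holds cells of 1 age only, and the effects of run and age cannot be told apart, so age differences are also given within each kind.

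Promoters were compared next. RefSeq windows on build GRCm38.p6, from 250 bases before to 50 after the start, were at hand for 69 of the 78 members and for 17041 protein-coding genes, of which 8484 had a mean of 1 TPM or more at either age. Windows were searched on both strands for the letters of 3 factors known from nuclear genes of mitochondria. The NRF1 motif lay in 13 members (18.8%, against 6.75% of all windows and 11.7% of those of expressed genes). CCGGAAG, the core of ETS factors such as GABP, lay in 25 (36.2%, against 12.1% and 20.0%). AANATGGC, the YY1 motif, lay in 21 (30.4%, against 6.71% and 9.59%); its letters hold ATG, which a start codon can also supply. Related lists held the same letters: the NRF1 motif was in 22.2% of 72 windows of nuclear respiratory chain genes and 7.25% of 69 of cytosolic ribosomal proteins, the ETS core in 22.2% and 36.2%, and the YY1 motif in 20.8% and 17.4%. At least 1 of the 3 was present in 46 members (66.7%, against 22.5% of all windows and 35.7% of expressed ones), and 13 members held at least 2. Of other promoter letters, the GC box GGGCGG was in 49.3% of members (47.2% of all windows, 65.5% of expressed genes), CCAAT in 39.1% (39.2% and 39.1%) and TATAAA in 5.80% (13.3% and 6.55%). A match to letters is no evidence of binding, and no binding was measured here. The windows of the 4 members with the highest levels, and of Mrps12, which holds both an ETS and a YY1 match, are printed in the direction of transcription with the matches to the 3 motifs in capitals. The RefSeq start of Mrpl33 lies inside the GENCODE gene span given further on, which begins farther upstream.
Mrps21, chr3:95871465-95871764, minus strand: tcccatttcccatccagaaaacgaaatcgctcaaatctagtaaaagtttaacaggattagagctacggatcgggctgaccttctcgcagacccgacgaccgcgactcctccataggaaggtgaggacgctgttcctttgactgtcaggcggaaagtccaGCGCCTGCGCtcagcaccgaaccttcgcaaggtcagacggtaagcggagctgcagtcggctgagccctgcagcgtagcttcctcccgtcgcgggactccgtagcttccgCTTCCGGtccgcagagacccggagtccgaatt
Mrps33, chr6:39810887-39811186, minus strand: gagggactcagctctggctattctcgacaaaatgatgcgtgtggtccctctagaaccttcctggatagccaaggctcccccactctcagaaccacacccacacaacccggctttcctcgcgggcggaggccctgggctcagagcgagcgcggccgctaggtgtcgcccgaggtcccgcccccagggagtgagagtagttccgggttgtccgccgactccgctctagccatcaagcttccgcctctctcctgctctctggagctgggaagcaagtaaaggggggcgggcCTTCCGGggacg
Mrpl42, chr10:95501900-95502199, minus strand: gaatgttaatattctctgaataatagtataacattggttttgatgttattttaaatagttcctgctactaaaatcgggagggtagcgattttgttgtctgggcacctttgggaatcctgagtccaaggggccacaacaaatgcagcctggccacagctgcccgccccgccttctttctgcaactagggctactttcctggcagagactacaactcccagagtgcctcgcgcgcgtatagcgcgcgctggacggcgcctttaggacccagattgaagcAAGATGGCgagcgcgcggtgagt
Mrpl33, chr5:31613701-31614000, plus strand: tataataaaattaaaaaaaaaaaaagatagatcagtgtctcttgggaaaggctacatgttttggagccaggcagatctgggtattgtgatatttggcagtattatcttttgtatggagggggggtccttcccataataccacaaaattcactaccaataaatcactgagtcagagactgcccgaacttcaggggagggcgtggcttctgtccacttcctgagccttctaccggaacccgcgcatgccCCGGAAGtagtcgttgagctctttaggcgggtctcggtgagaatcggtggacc
Mrps12, chr7:28741772-28742071, minus strand: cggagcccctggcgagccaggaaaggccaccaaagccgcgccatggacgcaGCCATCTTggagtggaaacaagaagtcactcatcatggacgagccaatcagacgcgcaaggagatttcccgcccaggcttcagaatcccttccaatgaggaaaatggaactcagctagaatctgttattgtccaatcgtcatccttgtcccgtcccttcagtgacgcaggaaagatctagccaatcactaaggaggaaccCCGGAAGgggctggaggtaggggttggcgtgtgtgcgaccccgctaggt
In Mrps21 the capitals are an NRF1 match that begins 91 bases before the start, GCGCCTGCGC on this strand, and an ETS match at base 19, CTTCCGG. Mrps33 has an ETS match at base 39 and Mrpl33 one that begins 3 bases before the start. Mrpl42 has a YY1 match at base 28, AAGATGGC. Mrps12 has a YY1 match 199 bases before the start, GCCATCTT, and an ETS match at base 2. Levels did not follow 1 order with the motifs. Members with an ETS match had a median mean level of 30.1 TPM and those without one 15.8 TPM. For YY1 the order was the same, 22.4 against 17.8 TPM, and for NRF1 it was the other way, 12.9 against 22.8 TPM.

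Levels differed widely between the members. The mean over all cells ran from 2.86 TPM for Mrpl15 to 154 TPM for Mrps21, with a median over members of 19.3 TPM and quartiles of 10.2 and 44.5 TPM. A mean of 100 TPM or more was reached by 4 members, 14 reached 50 TPM, and 19 stayed under 10 TPM. For comparison, the median mean level of expressed genes was 134 TPM for the nuclear genes of the respiratory chain and 190 TPM for cytosolic ribosomal proteins.

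**Figure D1:**
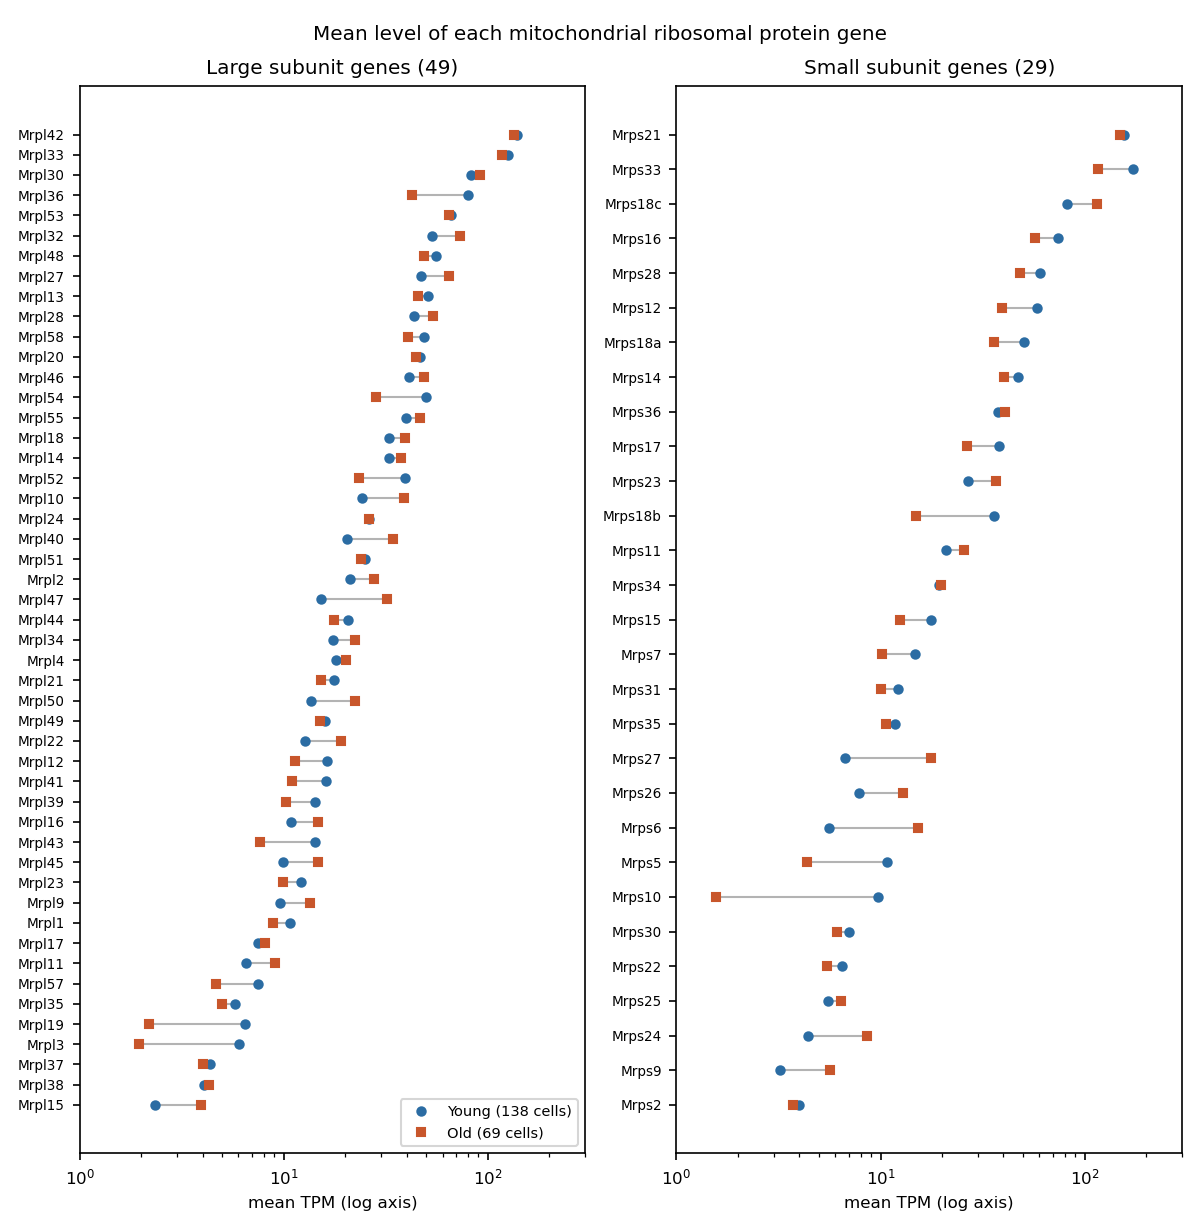
Mean TPM of each of the 78 genes on a log axis, large subunit genes on the left and small subunit genes on the right, ordered by the mean over all cells. Circles are the 138 Young and squares the 69 Old cells, with a line joining the pair; Mrps21, Mrps33, Mrpl42 and Mrpl33 stand above 100 TPM at both ages.

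Mrps21 and Mrps33 led the small subunit. Mrps21 (chromosome 3, 95862634 to 95871519, minus strand, GRCm38 as all positions here), which has a bacterial counterpart and encodes the shortest member at 87 residues, lay at 0, 112 and 1772 TPM (lowest, median and highest) in Young cells and at 0, 85.6 and 727 TPM in Old cells. Mrps33 (chromosome 6, 39801804 to 39810988, minus strand), a protein without a bacterial counterpart, lay at 0, 141 and 823 TPM in Young and at 0, 62.6 and 585 TPM in Old cells. For both genes the cells of the ages overlapped over nearly the whole range. Detection was 85.5% of all cells for Mrps21 (95% Clopper-Pearson interval 80.0 to 90.0%, counting error only) and 83.1% for Mrps33 (77.3 to 87.9%).

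Mrpl42 and Mrpl33 led the large subunit. Mrpl42 (chromosome 10, 95480805 to 95501940, minus strand), specific to mitochondria, had 0, 80.8 and 1007 TPM in Young and 0, 50.7 and 1033 TPM in Old. Mrpl33 (chromosome 5, 31596935 to 31664384, plus strand), of bacterial type, had 0, 59.8 and 1108 TPM in Young and 0, 37.6 and 738 TPM in Old. The log2 ratio of Old over Young means was -0.06 for Mrpl42 (0.30 in the low and -0.35 in the high kind) and -0.09 for Mrpl33 (0.16 and -0.56). The medians of both were lower in Old, with differences of mean log2(TPM + 1) of -0.32 and -0.49, and the ages overlapped throughout. Of the next members, Mrps18c had a mean of 93.1 ± 144 TPM (SD, n = 207 cells), Mrpl30 85.7 ± 137 TPM, Mrps16 68.3 ± 140 TPM, Mrpl36 67.3 ± 199 TPM, Mrpl53 65.7 ± 161 TPM and Mrpl32 59.9 ± 174 TPM. Mrpl48 (53.2 TPM) and Mrpl27 (52.9 TPM) followed in the large subunit, and Mrps28 (56.2 TPM), Mrps12 (52.0 TPM), Mrps18a (45.6 TPM) and Mrps14 (44.8 TPM) in the small one. Each SD given exceeds its mean, and neighbours in the order of means do not differ beyond the spread between cells.

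At the other end stood members of both subunits with means of a few TPM. Mrpl15 (mean 2.86 TPM), Mrpl38 (4.15 TPM), Mrpl37 (4.24 TPM) and Mrpl3 (4.69 TPM), which lies near the site of peptide bond formation, were the lowest of the large subunit. Mrps2 (3.88 TPM), Mrps9 (4.03 TPM), Mrps24 (5.79 TPM) and Mrps25 (5.82 TPM) were the lowest of the small one. Members with a longer coding sequence had lower TPM, with a Spearman correlation of -0.56 across the 78 genes, which share all their cells. Across 10244 expressed protein-coding genes with a coding length it was -0.32. With transcript length it was -0.47 across the members, although TPM is already divided by transcript length. The encoded proteins ran from 87 to 442 residues with a median of 194.

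Detection was sparse and followed the cell. No member was found in every cell: each was listed at 0 in at least 23 of 207 cells, and 44 of the 78 had a median of 0 TPM. Shares of cells with a member detected ran from 12.6 to 85.5% with a median of 37.9%, and 19 members were detected in at least 50% of cells. In the cells where a member was detected its level had a median over members of 59.4 TPM. A cell held 30 detected members at the median, from 7 to 55. The median was 30.5 in Young and 30 in Old cells, but by run it was 29, 15, 28 and 40 for Young and 36.5, 26.5, 21 and 27 for Old. The number moved with the count of all detected genes, with a Spearman correlation of 0.88 over 207 cells, both counts coming from the same library. Members made up a median of 0.736% of detected genes in Young and 0.746% in Old cells.

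**Figure D2:**
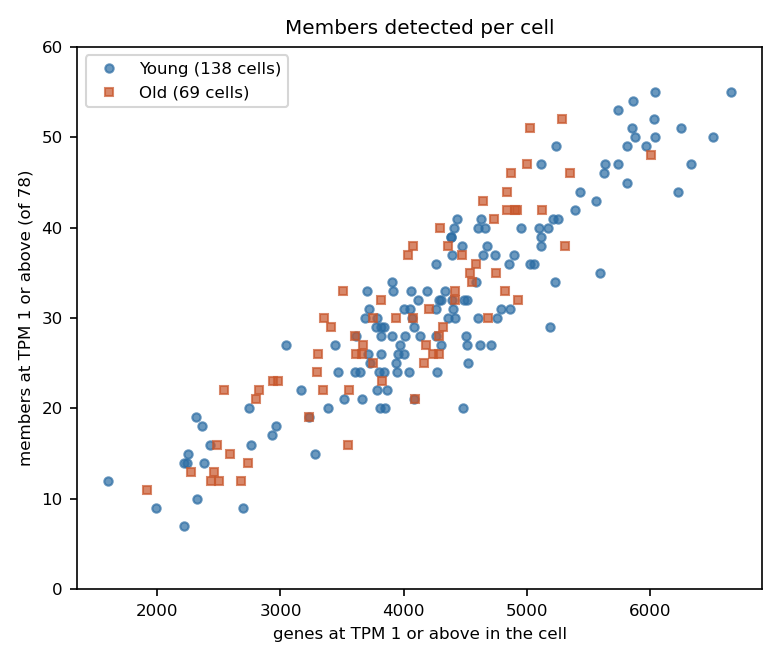
Number of the 78 members at TPM 1 or above in each cell (vertical) against the number of all genes at TPM 1 or above in that cell (horizontal), 1 point a cell, 138 Young and 69 Old. Both ages lie on 1 band that climbs from 7 to 55 members, so that a cell's count of members follows its count of genes.

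Several member rows moved with a pseudogene row, which bears on their levels. In a screen of 10378 rows, 14 members had at least 1 other row with a Spearman correlation of 0.5 or more across cells, 19 rows in all. Of these, 18 are pseudogenes and 1 is a long noncoding RNA (Gm16279). None is protein-coding, and the highest correlation of a member with any protein-coding row was 0.43. Mrpl23 (gene 19935) was the extreme case. Its own mean was 11.4 TPM, its pseudogene row Mrpl23-ps1 had 67.8 TPM, and the correlation was 0.93 over 207 cells. All 123 cells with Mrpl23 also had Mrpl23-ps1, and the pseudogene row was the higher of the pair in 121 of them, by a median of 6.19-fold (quartiles 3.69 and 9.17). The pseudogene row thus held 85.6% of their sum of 79.2 TPM, a sum that would rank 7th among members. How reads were split between such copies is not given in the sources used here, so the separate level of Mrpl23 is uncertain.

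The other shared rows were smaller beside their member. Gm13552 held 21.8% of its sum with Mrps18b (8.08 against 28.9 TPM) and Gm5776 held 8.46% of its sum with Mrps33 (14.2 against 154 TPM). Mrps36 moved with 5 such rows, the highest being Mrps36-ps2 with a correlation of 0.88 and 4.15 TPM, and Mrps36-ps1 with 0.85 and 6.04 TPM. Gm6181 had 6.62 TPM beside Mrps21. Levels of these members are less certain by that much, and the age difference of Mrps18b was -0.95 with Gm13552 added to it against -1.21 without.

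The subunits had similar levels per gene, and which was higher depended on the summary. Mean TPM per large subunit gene was 30.5 and per small subunit gene 33.5, a log2 ratio of large over small of -0.14. Members specific to mitochondria and those of bacterial type had like medians: 19.1 TPM for 29 bacterial-type and 19.5 TPM for 19 mitochondria-specific large subunit genes, and 15.9 TPM for 15 and 11.4 TPM for 9 in the small subunit, with 6 members in neither list. The ratio turned to 0.30 when the medians over members were compared and to 0.19 without the 3 highest members of each subunit, so the order of the subunits turned with the weight of their highest genes, which are Mrps21, Mrps33 and Mrps18c in the small subunit. The 8 highest members held 43.2% of the TPM of the large and 68.8% of that of the small subunit.

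By age the ratio was -0.20 in Young and -0.01 in Old cells, and by kind of run -0.02 in the low and -0.24 in the high kind. Without cell 202, the Old cell with the highest large subunit mean, the Old ratio was -0.06. The median over cells of the ratio was -0.24 in Young and -0.23 in Old. In single cells it varied widely, with an SD of 1.16 on the log2 scale, and the large subunit was ahead in 86 of 207 cells (41.5%). Mean TPM per large and per small member correlated weakly across cells (Spearman 0.23, n = 207), which is no finding in values this sparse. The symbols do not match the structure for 3 members: Mrps30 and Mrps18a sit in the large subunit and Mrps36 belongs to the 2-oxoglutarate dehydrogenase complex. With those moved or left out the ratio was -0.16. The rRNAs were not level, with a mean of 6831 TPM for mt-Rnr2 and 1152 TPM for mt-Rnr1, a log2 ratio of 2.57. By run this ratio went from 1.24 in Young run 2 to 3.31 in Young run 1. Whether it reflects the amounts of the subunits was not tested.

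Summed over all 78 genes, the members took 0.246% of TPM. The sum was 2494 ± 837 TPM (SD, n = 138 cells) in Young cells, with a lowest, median and highest cell of 554, 2475 and 5808 TPM. In Old cells it was 2402 ± 1160 TPM (n = 69 cells), at 566, 2228 and 7603 TPM. The ages overlapped almost fully and the log2 ratio of the means was -0.05. The highest Old cell, number 202, held the top Old value of Mrpl42 (1033 TPM) and of Mrpl10 (964 TPM), and without it the Old mean was 2325 ± 978 TPM.

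The sums also differed between runs of 1 age. By run, mean sums were 2764, 2139, 2088 and 2644 TPM for Young and 2452, 2526, 1417 and 2888 TPM for Old. The lowest, Old run 3 with 9 cells, also had few detected genes (median 3554) and the highest mitochondrial coding transcripts of the runs (mean 185341 TPM). The highest, Old run 4 with 8 cells, holds cell 202 and stood at 2214 TPM without it. Within the low kind the sum was 2590 TPM in Young and 2598 TPM in Old, and within the high kind 2432 and 2131 TPM.

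**Figure D3:**
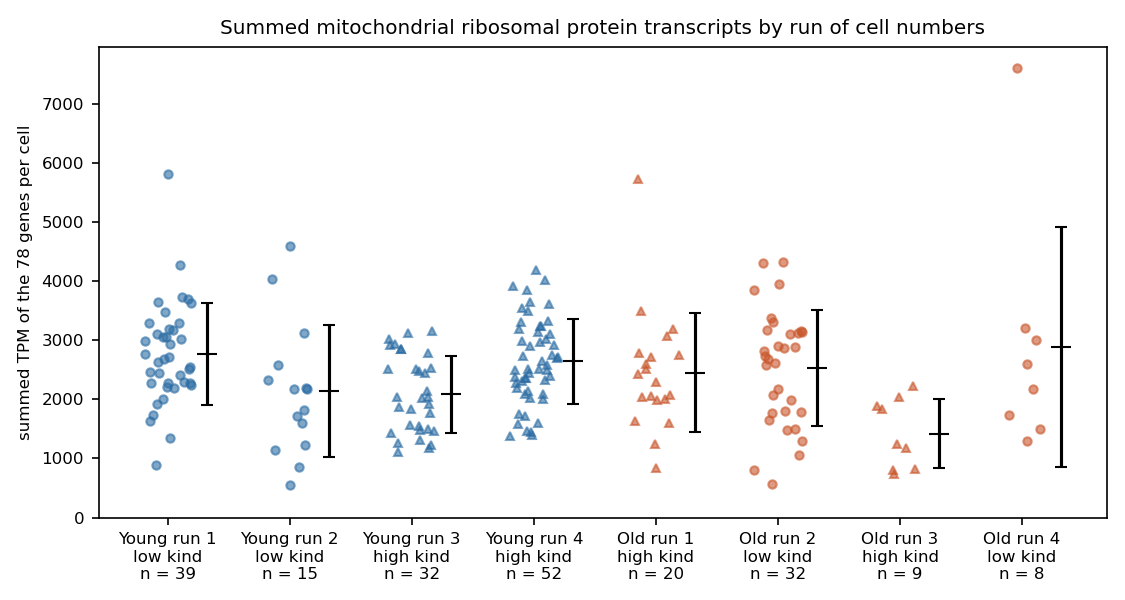
Summed TPM of the 78 genes in each cell (vertical, from 0), by run of cell numbers, with circles for the low and triangles for the high kind. Black marks are the mean and SD over the cells of a run; the 4 Young means (2088 to 2764 TPM) lie inside the range of the 4 Old means (1417 to 2888 TPM).

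Across cells the sum went with other nuclear genes of the organelle. Its Spearman correlation with the summed nuclear respiratory chain genes was 0.59 (Young 0.63, Old 0.53), with cytosolic ribosomal proteins 0.47, with the share of insulin -0.39 and with mitochondrially encoded coding transcripts -0.27, each over 207 cells. Within Young and Old cells the value was 0.49 and 0.46 for cytosolic ribosomal proteins, -0.46 and -0.30 for insulin and -0.14 and -0.45 for the mitochondrial coding transcripts. TPM shares a fixed total, so such values are tied to insulin: with Ins1 and Ins2 left out of the total they were 0.51, 0.38 and -0.44 for the respiratory chain, the cytosolic ribosome and the mitochondrial coding genes. Single members hardly moved together. Among the 19 detected in at least 50% of cells the median pairwise Spearman correlation was 0.10 over 171 pairs, from -0.13 to 0.28. For respiratory chain genes detected as widely it was 0.12, and for cytosolic ribosomal proteins 0.14.

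Most members were within 1.5-fold between the ages. Over all cells, 9 of 78 were at least 1.5-fold higher in Old (11.5%), where 17.1% of 10438 expressed protein-coding genes were. Another 10 were at least 1.5-fold lower (12.8%), where 28.7% of those genes were. Their median log2 ratio was -0.07, and that of all genes -0.15. Members have a higher level than the typical gene, with a median of 19.3 TPM against 6.06 TPM for those genes. At a mean of 10 TPM or more, 7 of 62 were higher and 6 lower, where the shares of all genes were 14.6% and 22.3%. These counts describe size and have no test, and they moved with single runs. Without Young run 1 there were 18 higher, without Young run 2 only 4, and without Old run 2 or Old run 3 16 each, while 25 were lower without Old run 1 and 21 without Old run 2. By the difference of mean log2(TPM + 1), 0 were higher and 14 lower. Shares of all genes were not computed with a run left out or by that difference. Whether other genes moved as much was not tested.

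**Figure D4:**
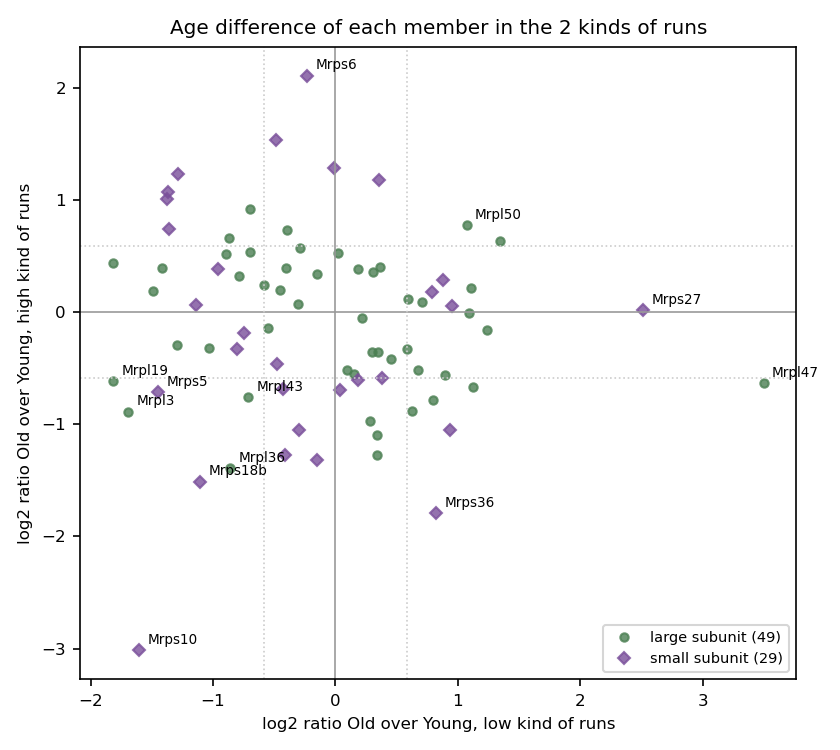
Log2 ratio of Old over Young mean TPM of each member in the low kind of runs (horizontal) and the high kind (vertical), circles for the 49 large and diamonds for the 29 small subunit genes. Dotted lines mark 1.5-fold; 31 of 78 members have the same sign in both kinds.

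The differences were also computed within each kind of run. In the low kind 20 members were at least 1.5-fold higher (all genes 23.4%) and 25 lower (34.9%), and in the high kind 13 were higher (20.2%) and 23 lower (34.5%). The sign was the same in both kinds for 31 of 78 members (39.7%), and for 50.5% of all genes. By list, the median ratio was 0.16 for bacterial-type and -0.08 for mitochondria-specific large subunit genes, and -0.21 and 0.04 for the small subunit. None of these medians reached 1.5-fold, and that of bacterial-type large genes was -0.01 in the high kind.

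Lower in Old cells over all cells and in both kinds, by at least 1.5-fold each time, were 7 of 78 members (12% of all genes were so): Mrps10, Mrps18b, Mrps5, Mrpl3, Mrpl19, Mrpl36 and Mrpl43. The single counterpart in the other direction was Mrpl50.

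Mrpl36 (chromosome 13, 73328513 to 73332178, plus strand), a small protein of the large subunit, had 0, 5.22 and 2491 TPM (lowest, median, highest) in Young and 0, 1.12 and 488 TPM in Old. The means were 79.7 ± 234 and 42.4 ± 92.0 TPM, a log2 ratio of -0.89, with -0.86 in the low and -1.39 in the high kind. The cells overlapped, since both ages hold cells at 0 and cells far above the mean, and 68.1% of Young and 50.7% of Old cells had it. The single highest Young cell holds 22.6% of the Young total, and without the top cell of each age the ratio was -0.78. Its exons overlap those of Ndufs6, a complex I gene on the other strand with means of 181 TPM in Young and 118 TPM in Old (-0.61), and with strand handling not given the part of those reads was not tested.

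Mrps18b (chromosome 17, 35910379 to 35916389, minus strand), a small subunit protein, had 0, 0.545 and 632 TPM in Young and 0, 0 and 299 TPM in Old, with means of 35.9 ± 86.6 and 14.9 ± 47.2 TPM and a log2 ratio of -1.21. The ages overlapped, and 43.5% of Young and 34.8% of Old cells had it. Its paralogs had smaller ratios. Mrps18c, the copy that sits in the small subunit in the place of the bacterial protein, had a ratio of 0.48, and Mrps18a -0.47, neither of them at 1.5-fold.

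Mrps5 (chromosome 2, 127587222 to 127606829, plus strand), of bacterial type and placed near the entry of the message, was the one member whose run means did not overlap between the ages (1.75% of all genes were so in that direction, and 0.441% in the other). They ran from 8.00 to 13.0 TPM in Young and from 0 to 7.98 TPM in Old runs, so the gap was narrow. Its cells lay at 0, 0 and 175 TPM in Young and 0, 0 and 46.2 TPM in Old, and detection was near at 34.8% and 30.4%. The log2 ratio of the means (10.8 and 4.38 TPM) was -1.13.

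Mrps10, of bacterial type, had the largest ratio of all members, -2.07, from means of 9.74 ± 32.1 TPM in Young and 1.56 ± 8.15 TPM in Old. It was detected in 32 of 138 Young cells (23.2%, 95% Clopper-Pearson interval 16.4 to 31.1%) and in 7 of 69 Old cells (10.1%, 4.18 to 19.8%), with highest cells of 226 and 63.8 TPM. The median was 0 at both ages. Mrpl3 (6.05 and 1.96 TPM, -1.25), Mrpl19 (6.42 and 2.18 TPM, -1.22) and Mrpl43 (14.2 and 7.63 TPM, -0.82) were detected in 11, 9 and 13 Old cells. Mrpl43 lies over exons of Twnk, the mitochondrial DNA helicase, on the other strand, and strand handling is not given, so reads from the shared stretch cannot be told apart. Twnk was detected in 2 of the 62 cells with Mrpl43 (3.23%) and in 12 of the cells without it (8.28%). Whether reads were shared was not tested. In all, 23 members have exons that overlap those of another protein-coding gene on either strand. Among them are Mrpl19 (over Gcfc2), Mrpl47 (over Actl6a and Ndufb5) and Mrps6 (over Slc5a3, on the same strand), and the same limit applies to their values.

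Higher in the same strict sense was 1 member, Mrpl50 (4.75% of all genes). This large subunit protein specific to mitochondria had means of 13.6 ± 39.3 TPM in Young and 22.4 ± 52.6 TPM in Old, a log2 ratio of 0.68 (low kind 1.07, high kind 0.77). Its median was 0 at both ages, its highest cells were 282 and 196 TPM, and detection was 36.2% and 34.8%, so the ages overlapped fully.

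Of the ratios above 0, that of Mrps6 rests on 1 cell. Mrps6 had a log2 ratio of 1.29, but Old cell 144 alone, at 789 TPM, holds 75.2% of its Old total. Without the top cell of each age the ratio was 0.04. Mrps27, a pentatricopeptide repeat protein of the small subunit, had 1.28 (2.51 in the low and 0.02 in the high kind) and 0.80 without the top cells. Mrpl47 had 1.04, from 3.50 in the low and -0.64 in the high kind. Mrpl40 had 0.71 (1.11 and 0.22) and Mrpl10 0.66 (0.59 and 0.12), the latter with 36.0% of its Old total in cell 202. At the median over members, the top cell held 22.4% of the Old and 15.3% of the Young total. On the lower side at a mean of 10 TPM or more, Mrpl54 (-0.79) and Mrpl52 (-0.73) had the same sign in both kinds. For Mrpl54, however, the median was higher in Old (1.29 TPM in Young, 8.98 TPM in Old), as was detection (53.6% and 60.9%). Its highest Young cell held 23.4% of the Young total, and without the top cells the ratio was -0.70. For Mrpl52 the median (5.45 and 1.38 TPM) and detection (60.9% and 50.7%) were lower in Old.

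The share of cells with a member differed most downward for Mrps28, a small subunit protein. It was detected in 62.3% of Young (95% interval 53.7 to 70.4%) and 39.1% of Old cells (27.6 to 51.6%), and its levels were 0, 15.6 and 437 TPM in Young and 0, 0 and 380 TPM in Old. Mrpl41 was detected in 47.8% and 27.5%, and Mrps17 in 48.6% and 30.4%. Upward stood Mrpl53 with 59.4% of Young and 73.9% of Old cells, and then, by the same difference, Mrps25 with 27.5% and 37.7%, Mrps27 with 11.6% and 21.7% and Mrpl18 with 34.8% and 44.9%. For Mrpl53 the mean levels were even, at 66.3 and 64.5 TPM. The number of detected genes differed between runs, and its part in these shares was not tested.

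Members with known single roles include proteins of the stalk and of the decoding centre. Mrpl12, of the stalk that recruits translation factors, had 16.2 ± 41.8 TPM in Young and 11.4 ± 41.7 TPM in Old (-0.48), with -1.82 in the low and 0.44 in the high kind. Mrpl58, a peptidyl-tRNA hydrolase built into the large subunit, had 48.8 ± 147 and 40.6 ± 80.9 TPM (-0.26). Mrps12, of the decoding centre, had 58.3 ± 95.0 and 39.5 ± 68.9 TPM (-0.55). Mrps36 had 37.6 ± 66.9 and 40.8 ± 137 TPM (0.11) and Mrps30 7.03 ± 40.6 and 6.11 ± 27.6 TPM (-0.18). Mrpl57 had 7.51 ± 14.2 and 4.67 ± 9.64 TPM (-0.59), with 0.34 in the low kind, and was found in 44.9% of all cells. No sign here held with a size of 1.5-fold in both kinds.

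Members lie on 17 chromosomes, with 11 on chromosome 11, 8 on chromosome 17 and 0 on the X. Many share a start region with another gene: 26 have a protein-coding neighbour on the other strand whose start lies head to head with theirs, within 1000 bases or overlapping by up to 500, in the GENCODE annotation of GRCm38. Among the partners are other genes of mitochondria. Mrps12 begins 172 bases from Sars2, a mitochondrial seryl-tRNA synthetase, Mrps27 81 bases from Ptcd2, Mrpl36 overlaps the start of Ndufs6 of complex I, and Mrpl46 overlaps that of Mrps11. Spearman correlations over 207 cells were 0.09 for Mrps12 and Sars2, 0.03 for Mrps27 and Ptcd2, 0.18 for Mrpl36 and Ndufs6 and -0.02 for Mrpl46 and Mrps11, and in such sparse values none is a finding. Mrps11 was detected in 28 of the cells with Mrpl46 (35.9%) and in 42 of the cells without it (32.6%).

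The other genes of mitochondrial translation did not show 1 direction either. Of 5 mitoribosomal proteins with other names, 0 were at least 1.5-fold higher and 1 lower. That one, Ptcd3, a pentatricopeptide repeat protein of the small subunit, had 14.6 TPM in Young and 3.66 TPM in Old (-1.75, and -1.67 and -1.65 in the kinds). Gadd45gip1, of the large subunit, had the highest ratio in that list at 0.28 (11.2 and 13.8 TPM). Of 12 translation factors 2 were higher and 1 lower (17.1% and 28.7% of all genes were so, as for every list here), with the elongation factors Gfm1 (5.75 and 10.9 TPM, 0.82) and Tufm (13.2 and 12.8 TPM, -0.04) at the ends of those above 10 TPM. Of these 2 elongation factors, both had ratios above 0 in the low kind and 0 had one in the high kind. Of 19 assembly factors 7 were higher and 4 lower; Eral1, which binds the small subunit rRNA, had 4.21 and 16.9 TPM (1.78) and was found in 16.7% of Young and 23.2% of Old cells, and Mterf3 had 14.6 and 18.9 TPM (0.35), the ends of the 5 at 10 TPM or more. The lowest ratio of all 19 was that of Fastkd2 (5.46 and 1.07 TPM, -1.64, and -2.33 and -1.02 in the kinds).

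Of 15 measured mitochondrial aminoacyl-tRNA synthetases 5 were higher and 6 lower. The 4 at 10 TPM or more ran from Rars2 (34.0 and 19.7 TPM, -0.76) to Yars2 (6.17 and 13.9 TPM, 1.06), and all 15 from Nars2 (-1.75) to Sars2 (1.09). Within the high kind all 4 at 10 TPM or more, Rars2 among them, had ratios above 0, and within the low kind 2 of them did. Lars2, for leucine, named here after its values were seen, was detected in every cell, at a median of 49.3 TPM in Young and 64.8 TPM in Old (0.79 for the means, 0.83 and 0.53 in the kinds). Of 12 genes of mitochondrial DNA expression 2 were higher and 4 lower. The 5 at 10 TPM or more ran from Lrpprc (10.7 and 7.47 TPM, -0.47) to Ssbp1, a DNA binding protein (18.2 and 33.6 TPM, 0.85), and the lowest of all 12 was Polrmt, the mitochondrial RNA polymerase (3.15 and 0.250 TPM, -1.73). The rRNAs changed sides with the kind: mt-Rnr2 had a ratio of 0.45 over all cells, with -0.53 in the low and 1.05 in the high kind, and mt-Rnr1 -0.03, with -0.58 and 0.50. The kinds were themselves drawn on mitochondrial rRNA and tRNA, so these values are a description. The 13 mitochondrial coding genes, which the members' ribosome translates, had a median ratio of 0.41, from -0.20 for mt-Nd6 to 0.96 for mt-Nd4.

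Of 85 nuclear respiratory chain genes 3 were higher and 4 lower, those at 10 TPM or more running from Ndufb6 (130.2 and 69.5 TPM, -0.90) to Ndufa10 (31.2 and 57.2 TPM, 0.86). Of 86 cytosolic ribosomal proteins 3 were higher and 4 lower, those at 10 TPM or more running from Rpl7l1 (34.1 and 20.6 TPM, -0.70) to Rplp0 (493 and 805 TPM, 0.70). Both lists are expressed well above the members, at medians of 134 and 190 TPM, and are detected in more cells, at medians of 88.4% and 97.8% against 37.9%.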

How the data were processed

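Single-cell RNA was measured in 207 cells from islets of male mice. Values are TPM as deposited by the authors in 1 table, each column a cell and matched to the samples by title, with 0 columns unused. Per the submitters' processing notes, CASAVA 1.8.2 and FastQC were run on build GRCm38 (mm10); aligner, quantifier, annotation and strand handling: not given in the sources used here. TPM holds no depth, so the number of cells limits the precision and Clopper-Pearson intervals cover counting error only. Of 44448 rows, which are gene numbers, 39725 were matched to RefSeq symbols of GRCm38.p6. Gene positions and lengths came from GENCODE vM21.

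No cell was left out, no 2 cells were identical, and no doublet caller or clustering was run. The age difference is log2((mean TPM Old + 1)/(mean TPM Young + 1)), which understates low genes, over genes with a mean of 1 TPM or more at either age. Its arithmetic was checked on simulated cells, drawn gene by gene from the Young cells with set folds. Those held no runs and no fixed TPM total, so the check does not bear on how reliable a single ratio is. Python 3.11.15, numpy 2.4.6, pandas 2.3.3 and scipy 1.17.1 were used. The members, lists, runs and rules were chosen with earlier results of these data known, and the runs date from after the data were seen. Named were the 8 highest and 4 lowest members of each subunit, the 6 highest and lowest age differences at 10 TPM or more, the 3 largest differences in share each way, 12 members fixed by name, members past 1.5-fold one way in both kinds, and the extreme genes of each list. Alternatives were other scalings, pseudocounts, filters, detection limits and leaving out runs or top cells.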

Additional observations from a re-analysis of the deposited data

How the results depend on the processing

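The median age difference of the members, -0.07, lay between -0.21 and 0.07 under 19 alternatives. Each moved by less than 0.53, the SD between runs of 1 age in the members' mean log2(TPM + 1). That SD is a spread of levels and not of this ratio, so it is a wide yardstick. The sign of the median turned without Young run 1 (0.07), without Young run 4 (0.02) and in cells with at least 3000 detected genes (0.02). The summed TPM ratio lay between -0.19 and 0.03, and the members detected per cell between 24 and 36. The counts at 1.5-fold were less stable. Against 9 members higher in Old there were 0 by the difference of mean log2(TPM+1), 15 with TPM rescaled over nuclear genes other than Ins1 and Ins2, 20 in the low kind, 5 without the highest cell of each gene, 14 in cells with 3000 genes or more, 18 without Young run 1, 4 without Young run 2, 16 without Old run 2 and 16 without Old run 3. Against 10 lower there were 6 at 10 TPM or more (62 genes tested), 25 in the low kind, 23 in the high kind, 19 without the highest cells, 25 without Old run 1 and 21 without Old run 2. Among these alternatives, shares of all genes were computed only for the kinds and the 10 TPM filter. For the rest it is unknown whether the members moved more than other genes. Large over small subunit, -0.14, was 0.30 by medians over members and 0.19 without the 3 highest of each. Of the ratios past 1.5-fold, those that turned sign within a kind were Mrpl47 in the high kind (-0.64), and in the low kind Mrpl57 (0.34), Mrps6 (-0.23), Mrps26 (-0.02) and Mrps9 (-0.48, against 0.67 over all cells). Smaller ratios turned sign too, such as Mrpl32 (0.44, and -0.88 in the high kind) and Mrps36 (0.11 and -1.79). The cause was not tested for any of these. All-gene medians were -0.15 as deposited, -0.24 without insulin genes and -0.13 over nuclear genes. Leaving out cell 202 and adding Mrpl23-ps1 to Mrpl23 (large over small -0.07) were chosen after seeing the data. Of the 10 highest members, 7 were also in the highest 10 by median TPM. No paired analysis was possible because each age is 1 sample and no label ties a Young cell to an Old one. Cell numbers run on from Young to Old, and none is shared. Depth is unknown, and with 1 sample an age no value has a replicate check.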
